A study of Mus musculus with 10 samples.

Results

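Nuclear receptors are transcription factors that bind small lipophilic ligands such as fatty acids, oxysterols, retinoids and glucocorticoids. Most of those described here pair with a retinoid X receptor on DNA, where corepressors hold target genes down until a ligand exchanges them for coactivators, and several can also dampen the inflammatory program of macrophages. The transcripts of 10 of them, namely *Ppard*, *Pparg*, *Rxra*, *Rxrb*, *Rara*, *Nr1h2*, *Nr1h3*, *Nr3c1*, *Nr4a1* and *Nr1d2*, were followed in RAW264.7 cells, a mouse macrophage line. They were picked by gene symbol through the Ensembl identifiers and make up 10 of the 43432 genes in the deposited count table. They also belong to a list of 49 mouse nuclear receptor genes, of which 44 had at least 1 count and 26 were abundant enough to be tested. All 10 were among the genes tested.

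The study asked how compound **1**, a C16 keto fatty acid from a marine cyanobacterial mat, modulates transcription in LPS-stimulated macrophages. Cells received vehicle alone (DMSO, 0.5%), vehicle with LPS at 1 µg/mL (DMSO + LPS), or **1** at 32, 10 or 3.2 µM with the same LPS, with vehicle or compound given 1 h before LPS and RNA collected after 12 h. There were 2 libraries in each of the 5 conditions, all from the 1 cell line, and no condition held **1** without LPS. Library totals lay between 45966803 and 58976377 counts, so the members other than *Pparg* had 487 to 5113 counts in each library and a counting error of at most 4.53%. *Pparg* had 8 to 50 counts, with a counting error of 14.1% to 35.4%.

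Levels are given as CPM, the counts relative to the library size after scaling by trimmed means (TMM). Changes are log2 fold changes ± SE from 1 edgeR quasi-likelihood fit of all 10 libraries, and a gene passed the test when its Benjamini-Hochberg adjusted p over the 14172 genes tested was below 0.05. The study's cutoff of 1.5-fold is given beside it. Nothing in the labels says that the 2 libraries of a condition came from separate cultures, so the p-values measure the spread between these libraries, which may be technical. With 2 libraries a side, an exact permutation test of a single value cannot go below p = 0.333, so none was used. The 3 doses were all compared with the same DMSO + LPS libraries, and these also served in the comparison with DMSO, so a deviation in them moves a gene one way with LPS and the other way with **1**.

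All 10 macrophage markers, including *Cd68*, *Adgre1* and *Csf1r*, were present in every library, with a summed level of 12003 and 11115 CPM in DMSO, 10442 and 10561 CPM in DMSO + LPS, 9882 and 9722 CPM at 3.2 µM, 9371 and 8636 CPM at 10 µM and 8516 and 8125 CPM at 32 µM. With LPS, 5 of the 10 rose and 3 fell, beside 25.2% of all genes tested that rose and 25.8% that fell. Against DMSO + LPS, 5 fell and 1 rose at 32 µM, beside 5.72% and 4.06% of all genes, with *Fcgr1* lowest (-1.70, adjusted p = 2.04e-05) and *Csf1r* the one that rose (0.40, adjusted p = 0.00118), and 4 fell and 1 rose at 10 µM, beside 1.7% and 0.967%. Of the 5 calls at 10 µM, those of *Csf1r*, *Adgre1* and *Itgam* were lost without 10 µM replicate 1, and none of the 10 markers passed without both libraries that held epithelial transcripts, described next (adjusted p of at least 0.0716). The part of the macrophage markers in the receptor results was not tested. *Nos2*, the inducible nitric oxide synthase, was at 0.0340 and 0 CPM in DMSO and at 210 and 202 CPM in DMSO + LPS, and *Nqo1*, a target of Nrf2, was at 2.65 and 2.58 CPM in DMSO + LPS and at 16.3 and 16.1 CPM at 32 µM. A pair of libraries stood apart in what else they held. The 4 epithelial markers (*Epcam*, *Krt8*, *Krt18* and *Cdh1*) summed to 38.2 CPM in 10 µM replicate 1 and to 5.78 CPM in 3.2 µM replicate 1, against 0 to 0.0850 CPM in the other 8, and the 4 fibroblast markers summed to 4.43 and 0.798 CPM there, against at most 0.286 CPM. In 32 µM replicate 2, *Gm42418* and *Gm23935*, features with ribosomal RNA sequence, held 3.61% of the counts. The source of the epithelial and fibroblast transcripts was not tested. With both libraries that held them left out, which leaves 1 library at each of these doses, *Nr4a1* stood at -0.65 (log2 fold change against DMSO + LPS) at 10 µM and the other 9 members between -0.11 (*Nr1h2*) and 0.37 (*Nr1d2*), and none passed the test. At 3.2 µM without them *Pparg* stood at -0.98 and *Nr4a1* at -0.40, where all libraries gave -0.53 and -0.45, and the other 8 members lay between -0.07 (*Rara*) and 0.09 (*Rxra*), again with none passing.

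Some receptors with low counts were also higher in 10 µM replicate 1, and these were picked out after their values were seen. *Hnf4a*, the epithelial receptor of liver and gut, had 147 counts in 10 µM replicate 1, 19 in 3.2 µM replicate 1 and 0 or 1 in the other 8 libraries. The vitamin D receptor *Vdr* had 51 counts in 10 µM replicate 1 but 6 in replicate 2, while at 3.2 µM it had 17 against 23 and in DMSO 78 and 94, and the mineralocorticoid receptor *Nr3c2* had 37 against 6 at 10 µM. *Nr1i2*, the pregnane X receptor gene, had 19 counts in 10 µM replicate 1 and no more than 4 elsewhere. Of the members only *Pparg* was in this range of counts. Its counts in replicates 1 and 2 were 22 and 14 at 10 µM, 13 and 8 at 3.2 µM, 30 and 20 at 32 µM, 18 and 15 in DMSO + LPS and 50 and 33 in DMSO. The part of the epithelial transcripts in these counts was not tested.

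**Figure D1:**
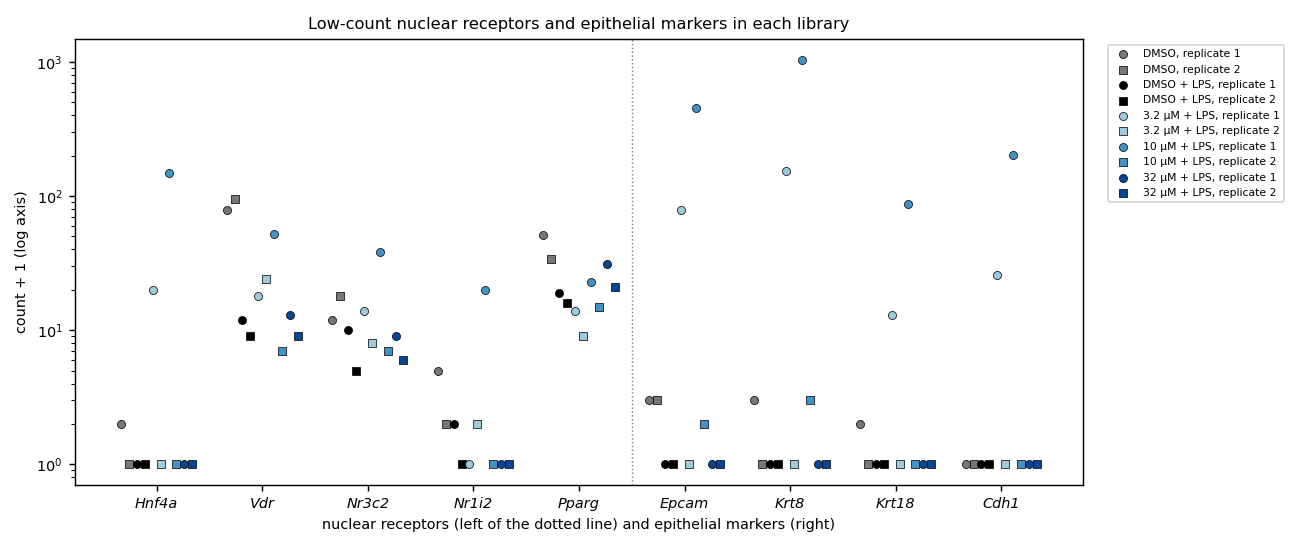
Counts + 1 on a log axis (y) of 4 low nuclear receptors, *Pparg* and the 4 epithelial markers (x) in each of the 10 libraries, 1 point per library, circles for replicate 1 and squares for replicate 2. The points of 10 µM replicate 1, and below them those of 3.2 µM replicate 1, lie far above the rest for the epithelial markers and *Hnf4a*, whereas *Pparg* had counts in every library.

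The resting macrophages expressed the receptors at very unequal levels. Divided by exon length, *Rxrb*, a retinoid X receptor, and *Nr1h2*, which encodes LXRβ, were the highest in DMSO, at 21.9 and 21.0 CPM per kb. The glucocorticoid receptor gene *Nr3c1* followed at 10.5, *Nr1h3* (LXRα) at 8.12, *Rxra* at 6.83, *Nr1d2* (REV-ERBβ) at 6.45, *Nr4a1* (Nur77) at 4.70, *Ppard* at 3.73 and *Rara* at 3.47 CPM per kb. *Pparg* was the lowest, at 0.242 CPM per kb in DMSO and 0.0745 to 0.179 CPM per kb with LPS. *Nr1h2* and *Rxrb* kept the top 2 places and *Pparg* the last in all 5 conditions. *Ppard* moved from place 8 of 10 in DMSO to place 4 in DMSO + LPS and place 3 at 32 µM, and with LPS it exceeded *Rxra*, *Nr3c1*, *Nr4a1* and *Nr1d2* per kb, all of which were above it in DMSO.

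With LPS the members moved in both directions. In such bulk RNA, a lower level in every cell and fewer cells with the transcript cannot be told apart. Of the 10 members, 4 rose and 4 fell in DMSO + LPS against DMSO, beside 25.2% of all genes tested that rose and 25.8% that fell. On library totals alone, without trimmed means, 1 rose (*Ppard*) and 5 fell, since *Nr1h2*, *Nr1h3* and *Nr4a1* no longer passed and *Nr1d2* did (-0.60, adjusted p = 0.0103). With the 1.5-fold cutoff, 1 rose (*Ppard*) and 2 fell (*Rxra* and *Pparg*), beside 14.6% and 13.6% of all genes. The changes of *Ppard*, *Rxra* and *Rxrb* passed the test under all 21 other settings of the fit (other scalings, filters, tests and designs, and each library left out in turn), whereas those of *Pparg*, *Nr1h2*, *Nr1h3*, *Nr3c1* and *Nr4a1* were lost in some of them. Under **1** fewer members moved. At 32 µM, *Ppard* rose further and *Nr4a1* fell, beside 4.06% of all genes that rose and 5.72% that fell, and only *Nr4a1* exceeded 1.5-fold, beside 1.27% and 2.91%. At 10 µM only *Nr4a1* passed the test, downward, beside 0.967% of genes rising and 1.7% falling. At 3.2 µM no member and no gene passed it (0% in either direction) in edgeR's quasi-likelihood test. Counted over all genes at that dose, 600 had an unadjusted p below 0.05, DESeq2 called 39 and edgeR's likelihood ratio test 8. Among the members, 1 had an unadjusted p below 0.05 and neither of these tests called any.

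**Figure D2:**
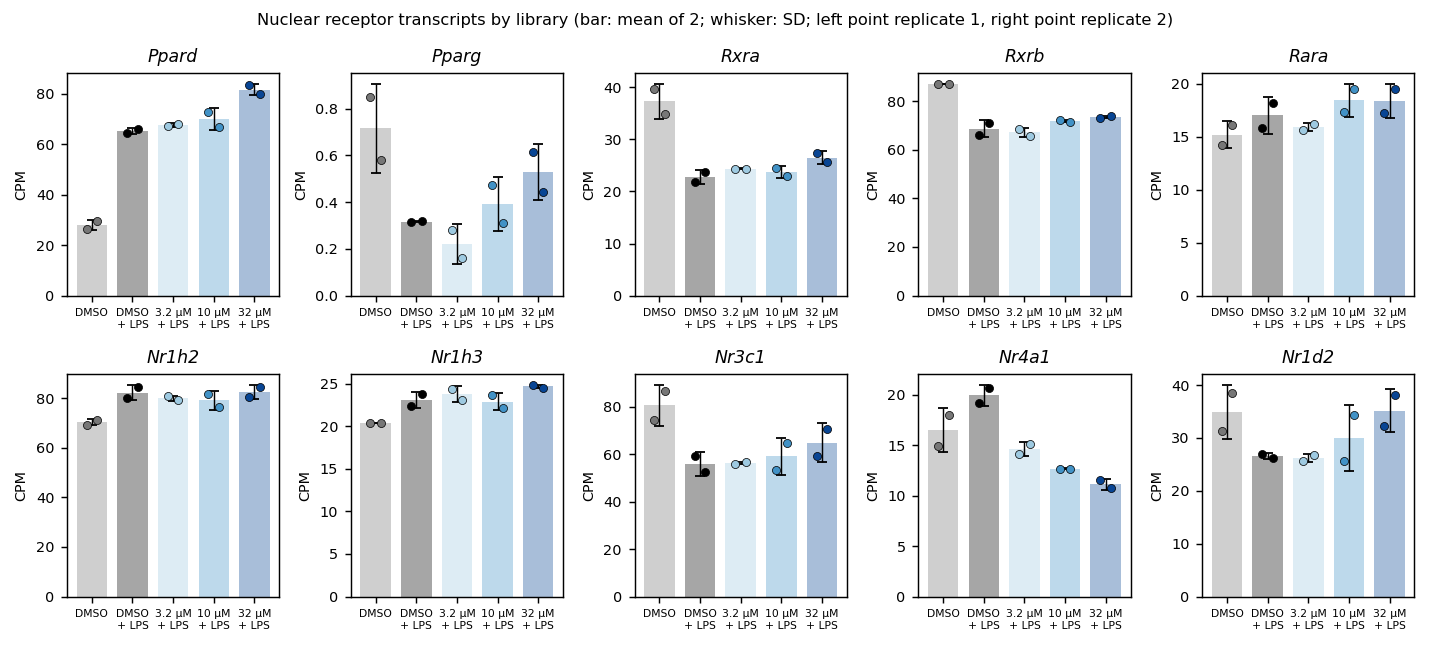
Level in CPM (y, linear from 0, own scale for each gene) of the 10 nuclear receptor transcripts in the 5 conditions (x), with a point for each library, a bar for the mean of 2 and a whisker for the SD. *Ppard* stands at 26.5 and 29.5 CPM in DMSO and at 80.1 and 83.3 CPM at 32 µM, and *Nr4a1* steps down from 19.2 and 20.7 CPM in DMSO + LPS to 10.8 and 11.5 CPM at 32 µM.

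*Ppard* (ENSMUSG00000002250, chromosome 17, positions 28232700 to 28301474 of GRCm38, plus strand) encodes PPARβ/δ, a receptor for long-chain fatty acids that drives genes of fatty acid oxidation. Its level was 26.5 and 29.5 CPM in the DMSO libraries, 64.4 and 66.0 CPM in DMSO + LPS, 67.1 and 68.0 CPM at 3.2 µM, 72.9 and 67.0 CPM at 10 µM and 83.3 and 80.1 CPM at 32 µM. Both DMSO libraries lay below all libraries with LPS, both 32 µM libraries above all others, and the 10 and 3.2 µM libraries overlapped. LPS raised *Ppard* 2.33-fold (log2 fold change 1.22 ± 0.07, adjusted p = 1.95e-06). Compound **1** at 32 µM raised it a further 1.25-fold (0.32 ± 0.07, adjusted p = 0.0175), and the adjusted p rose to 0.138 or 0.0962 without DMSO + LPS replicate 1 or 2 and to 0.0988 or 0.0599 without 32 µM replicate 1 or 2, with a log2 fold change between 0.30 and 0.35. The values at 10 µM (0.10 ± 0.07, adjusted p = 0.660; 0.04 with both libraries that held epithelial transcripts left out) and 3.2 µM (0.05 ± 0.07, adjusted p = 0.999) did not pass. The difference between 32 and 10 µM was 0.22 ± 0.07 (adjusted p = 0.176). Set directly against DMSO, a difference that includes the effect of LPS, cells at 32 µM with LPS had 2.92-fold more *Ppard* (1.54 ± 0.07, adjusted p = 6.95e-07). The levels compared are not those of DMSO + LPS, but the SE and p come from the fit of all 10 libraries.

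The RefSeq promoter window of *Ppard*, 250 bases before to 50 bases after the annotated start, is shown because *Ppard* was the member raised both by LPS and by 32 µM **1**. It lies at chr17:28232504-28232803 (GRCm38.p6, plus strand), 5′ to 3′, and the capitals mark its match to TGACNNNGC, the core letters of the antioxidant response element to which Nrf2 binds.
*Ppard* promoter: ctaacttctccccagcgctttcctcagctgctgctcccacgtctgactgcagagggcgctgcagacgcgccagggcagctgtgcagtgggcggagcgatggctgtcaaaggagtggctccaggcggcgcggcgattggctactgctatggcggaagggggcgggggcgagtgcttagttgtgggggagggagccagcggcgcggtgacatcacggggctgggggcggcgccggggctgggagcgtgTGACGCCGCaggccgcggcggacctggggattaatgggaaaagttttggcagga
The match begins at position -4 relative to the annotated start and overlaps a match to TGACG, the core letters of the cAMP response element. Searched on both strands, TGACNNNGC was found in 12.4% and TGACG in 20.8% of the 32851 promoter windows of the same length. Of the other members, *Pparg*, *Rara* and *Nr1d2* also held TGACNNNGC, with 1 match each. A match of letters describes the sequence and is not evidence of binding.

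*Pparg* (ENSMUSG00000000440, chromosome 6), the PPAR of adipocytes and of tissue macrophages, was at the other end of the scale. Its level was 0.850 and 0.581 CPM in DMSO, 0.314 and 0.319 CPM in DMSO + LPS, 0.280 and 0.160 CPM at 3.2 µM, 0.473 and 0.310 CPM at 10 µM and 0.613 and 0.442 CPM at 32 µM. The DMSO libraries lay above those of DMSO + LPS but overlapped those at 32 µM, and the latter overlapped those at 10 µM. *Pparg* fell by 1.17 on the log2 scale with LPS (SE 0.40, adjusted p = 0.0398), a call that held in 12 of the 20 other settings in which it was tested, with adjusted p from 0.0042 to 0.215, and was lost without either library of DMSO, of DMSO + LPS or of 32 µM. At 32 µM the log2 fold change was 0.73 ± 0.41 (adjusted p = 0.359), at 10 µM 0.30 ± 0.41 (adjusted p = 0.898; -0.03 without both libraries that held epithelial transcripts) and at 3.2 µM -0.53 ± 0.43 (adjusted p = 0.999). With SEs of 0.40 to 0.43, a change of 1.5-fold (0.58 on the log2 scale) was not detectable in *Pparg* at this depth.

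The retinoid X receptors, the common partners of PPAR, LXR and retinoic acid receptors, fell with LPS. *Rxra* (ENSMUSG00000015846, chromosome 2, positions 27676440 to 27762957 of GRCm38, plus strand) was at 39.7 and 34.9 CPM in DMSO and at 21.9 and 23.8 CPM in DMSO + LPS. With **1** it was at 24.4 and 24.3 CPM at 3.2 µM, 24.5 and 23.0 CPM at 10 µM and 27.4 and 25.7 CPM at 32 µM. The DMSO libraries lay above all others, the 32 µM libraries above the remaining 6, and those 6 overlapped except that both 3.2 µM libraries exceeded both of DMSO + LPS. LPS lowered *Rxra* 1.64-fold (log2 fold change -0.71 ± 0.08, adjusted p = 0.000144). The value at 32 µM against DMSO + LPS was 0.22 ± 0.08 and did not pass (adjusted p = 0.156), and *Rxra* at 32 µM with LPS stayed below DMSO (-0.49 ± 0.08, adjusted p = 0.00116). In *Rxra* the 32 µM value passed in 2 of 21 other settings, those that modeled a short-transcript score (adjusted p = 0.00519) or crossed replicate numbers (adjusted p = 0.0366).

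The second RefSeq start of *Rxra*, at chr2:27709042-27709341 (GRCm38.p6, plus strand), is shown because it holds the nuclear receptor hexamer AGGTCA, the DNA letters that RXR partners recognize, 2 times, once on each strand and here in capitals.
*Rxra* promoter: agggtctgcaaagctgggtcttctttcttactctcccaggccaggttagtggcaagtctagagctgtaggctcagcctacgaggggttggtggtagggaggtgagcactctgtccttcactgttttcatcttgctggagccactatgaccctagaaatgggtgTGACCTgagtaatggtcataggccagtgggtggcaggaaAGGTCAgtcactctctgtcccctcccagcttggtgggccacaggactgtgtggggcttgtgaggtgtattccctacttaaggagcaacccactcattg
The matches begin at positions -87 and -48 relative to the start. On both strands the hexamer was found in 16.3% of the 32851 windows, and at least 2 times in 1.81%. Since the start was shown for its matches, these shares are not a test. The counts per gene do not tell this start from the other one.

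*Rxrb* (ENSMUSG00000039656, chromosome 17) was at 86.9 and 87.1 CPM in DMSO, 66.2 and 71.1 CPM in DMSO + LPS, 68.6 and 65.9 CPM at 3.2 µM, 72.1 and 71.6 CPM at 10 µM and 73.3 and 73.7 CPM at 32 µM. Every library with LPS lay below both DMSO libraries, and the 32 µM libraries lay above the other LPS libraries by a small margin. *Rxrb* fell by 0.34 on the log2 scale with LPS (SE 0.05, adjusted p = 0.000528). None of the doses of **1** passed against DMSO + LPS, with log2 fold changes of 0.10, 0.06 and -0.03 at 32, 10 and 3.2 µM (SE 0.05 each, adjusted p = 0.293 to 0.999). *Rxrb* at 32 µM with LPS remained below DMSO by a log2 fold change of -0.24 ± 0.05 (adjusted p = 0.00343).

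*Rara* (chromosome 11), a receptor for all-trans retinoic acid, passed in none of the comparisons. Its libraries spanned 14.3 to 16.1 CPM in DMSO, 15.8 to 18.2 CPM in DMSO + LPS, 15.6 to 16.2 CPM at 3.2 µM, 17.3 to 19.5 CPM at 10 µM and 17.2 to 19.5 CPM at 32 µM. The libraries at 10 µM lay above those at 3.2 µM and above DMSO, as did those at 32 µM, and each group overlapped DMSO + LPS. The log2 fold change was 0.17 ± 0.11 with LPS (adjusted p = 0.236) and 0.11 ± 0.11 at 32 µM (adjusted p = 0.649).

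The liver X receptors, which sense oxysterols and switch on cholesterol efflux, were close to level. *Nr1h2* (chromosome 7) was at 69.4 and 71.2 CPM in DMSO and at 76.3 to 84.6 CPM in the 8 LPS libraries, which overlapped one another at all doses. *Nr1h3* (chromosome 2) was at 20.4 CPM in both DMSO libraries and at 22.2 to 24.8 CPM in the LPS libraries. The log2 fold change with LPS was 0.23 ± 0.05 for *Nr1h2* (adjusted p = 0.00779) and 0.18 ± 0.06 for *Nr1h3* (adjusted p = 0.0388). Both depended on the scaling, since without trimmed means, on library totals alone, the median of all genes tested moved by -0.20, *Nr1h2* stood at 0.02 (adjusted p = 0.757) and *Nr1h3* at -0.03 (adjusted p = 0.702), whereas *Ppard* stayed at 1.01 and *Rxra* at -0.92. Relative to that shift the values were 0.23 and 0.17. *Nr1h2* also missed the threshold without DMSO + LPS replicate 2 (adjusted p = 0.0657), and *Nr1h3* passed in 6 of 21 other settings. At 32 µM against DMSO + LPS, *Nr1h2* gave 0.00 ± 0.05 (adjusted p = 0.986) and *Nr1h3* 0.10 ± 0.06 (adjusted p = 0.418).

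*Nr3c1* (ENSMUSG00000024431, chromosome 18), the glucocorticoid receptor through which dexamethasone acts, was at 74.4 and 86.7 CPM in DMSO and 59.4 and 52.4 CPM in DMSO + LPS. It was at 56.0 and 56.6 CPM at 3.2 µM, 53.4 and 64.7 CPM at 10 µM and 59.1 and 70.7 CPM at 32 µM. The DMSO libraries lay above all libraries with LPS, and those at 32 µM lay above those at 3.2 µM, while the other conditions with LPS overlapped. *Nr3c1* fell by 0.53 on the log2 scale with LPS (SE 0.13, adjusted p = 0.00885), and the call was lost without DMSO replicate 2 (adjusted p = 0.0564) or DMSO + LPS replicate 2 (adjusted p = 0.0732). At 32 µM it was 0.21 ± 0.13 above DMSO + LPS (adjusted p = 0.396).

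*Nr1d2* (chromosome 14), a heme-binding repressor of the circadian clock, is described next. It was at 31.3 and 38.6 CPM in DMSO, 27.1 and 26.2 CPM in DMSO + LPS, 25.7 and 26.7 CPM at 3.2 µM, 25.6 and 34.4 CPM at 10 µM and 32.2 and 38.1 CPM at 32 µM. Both libraries at 32 µM exceeded both of DMSO + LPS and fell within the DMSO range. The log2 fold change was -0.39 ± 0.15 with LPS (adjusted p = 0.0666, passing in 12 of 21 other settings) and 0.40 ± 0.15 at 32 µM (adjusted p = 0.171, passing in 2). In DMSO, at 10 µM and at 32 µM, replicate 2 exceeded replicate 1 by 0.22 to 0.28 on the log2 scale for *Nr3c1* and by 0.24 to 0.43 for *Nr1d2*. In the same conditions a score of short transcripts, the median log2 level of 1400 genes with transcripts under 1000 nt relative to the other libraries, was lower in replicate 2 by 0.33 to 0.37. With the score in the fit, *Nr3c1* and *Nr1d2* passed at 32 µM (*Nr1d2* at 0.35 with an adjusted p of 0.000201), and the LPS value of *Nr1d2* shrank to -0.15.

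*Nr4a1* (ENSMUSG00000023034, chromosome 15, positions 101254269 to 101274795 of GRCm38, plus strand) encodes Nur77, an immediate early receptor that acts without a classical ligand and restrains NF-κB in macrophages. It was at 14.9 and 18.0 CPM in DMSO, 19.2 and 20.7 CPM in DMSO + LPS, 14.1 and 15.1 CPM at 3.2 µM, 12.7 CPM in both libraries at 10 µM and 11.5 and 10.8 CPM at 32 µM. Both libraries of each dose lay below both of the next lower dose, those at 3.2 µM below DMSO + LPS, and those at 3.2 µM overlapped DMSO. *Nr4a1* fell 1.79-fold at 32 µM against DMSO + LPS (-0.84 ± 0.10 on the log2 scale, adjusted p = 0.00118) and passed in all 21 other settings (-0.79 to -0.89). At 10 µM it fell 1.57-fold (-0.65 ± 0.10, adjusted p = 0.0137). That call was lost without 10 µM replicate 1, which held epithelial transcripts (-0.65, adjusted p = 0.0662), without both libraries that held them (-0.65, adjusted p = 0.164), without DMSO + LPS replicate 1 or 2 (adjusted p = 0.0859 and 0.134), and in edgeR on the 4 libraries compared (adjusted p = 0.0840). The value at 3.2 µM, -0.45 ± 0.10, did not pass (adjusted p = 0.685), although edgeR on the 4 libraries of that comparison gave an adjusted p of 0.00686. Neighboring doses did not differ past the test (32 against 10 µM -0.19 ± 0.10, adjusted p = 0.519; 10 against 3.2 µM -0.20 ± 0.10, adjusted p = 0.666). Cells at 32 µM with LPS were also below DMSO (-0.56 ± 0.10, adjusted p = 0.00173). The rise with LPS alone was small (0.27 ± 0.10, adjusted p = 0.0443), passed in 7 of 21 other settings, and was 0.07 on library totals, or 0.27 relative to the shift of all genes.

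The promoter window of *Nr4a1* at chr15:101266596-101266895 (GRCm38.p6, plus strand) is shown because *Nr4a1* was the member that fell at 2 doses and because it repeats a short motif.
*Nr4a1* promoter: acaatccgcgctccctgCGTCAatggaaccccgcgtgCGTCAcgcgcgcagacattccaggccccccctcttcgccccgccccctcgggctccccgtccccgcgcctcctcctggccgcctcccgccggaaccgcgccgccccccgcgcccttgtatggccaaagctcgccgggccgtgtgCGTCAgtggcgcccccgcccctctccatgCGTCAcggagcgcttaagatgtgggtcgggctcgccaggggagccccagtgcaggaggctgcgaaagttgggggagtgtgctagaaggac
The capitals mark 4 matches to TGACG, read here on the other strand as CGTCA, which begin at positions -233, -213, -69 and -40 relative to the start. At least 4 such matches were found in 0.231% of the 32851 windows. Since the window was shown for this repeat, the share is not a test. The window also holds a match to the NF-κB consensus, found in 4.51% of windows. Among the 9 members with a promoter in the RefSeq table, which together have 17 windows, *Rara*, *Rxrb*, *Nr1h2* and *Ppard* also held TGACG, and those of *Nr1h3* held none of the motifs searched, which included CACGTG, the E-box (7.15% of windows).

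**Figure D3:**
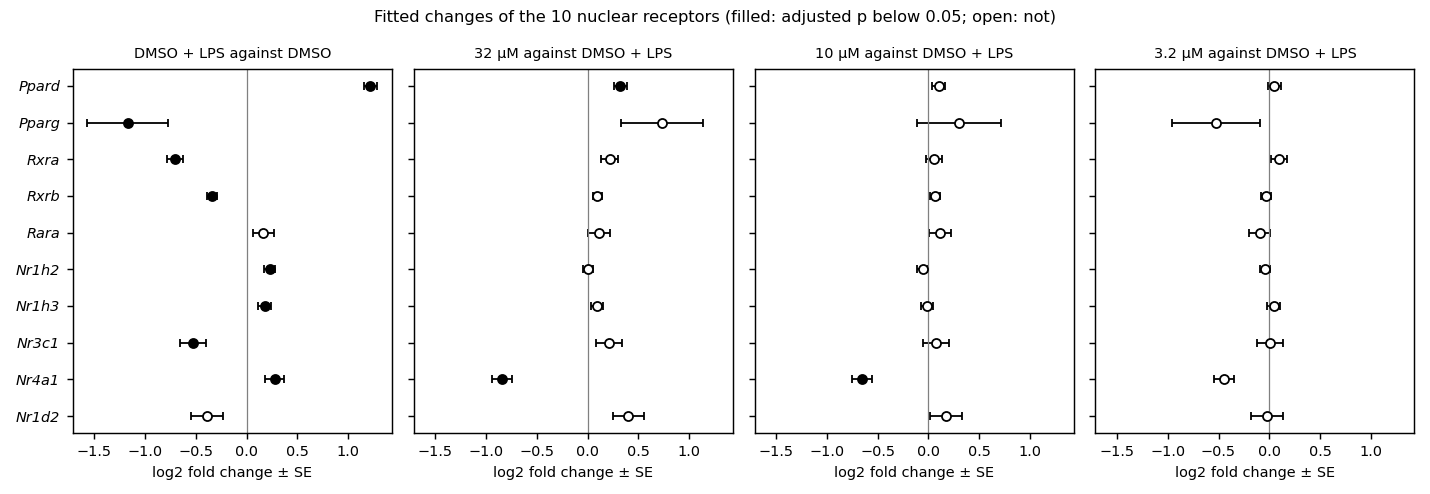
Log2 fold change with its SE (x) of the 10 nuclear receptors (y) in 4 comparisons, filled where the adjusted p was below 0.05. LPS moved 8 of 10 past the test, 32 µM *Ppard* (0.32) and *Nr4a1* (-0.84), 10 µM *Nr4a1* (-0.65) and 3.2 µM none.

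The higher doses were also compared with each other, and cells at 32 µM with LPS with DMSO. No member passed between 32 and 10 µM (0.804% of genes rose and 1.95% fell), where 1 member had an unadjusted p below 0.05, or between 10 and 3.2 µM (0.254% and 0.649%), where none had. DESeq2 and the likelihood ratio test called no member in either comparison. Against DMSO, 32 µM with LPS raised 3 members (*Ppard*, *Nr1h2* and *Nr1h3*) and lowered 3 (*Rxra*, *Rxrb* and *Nr4a1*), beside 25.7% of all genes that rose and 25.1% that fell. On library totals alone 1 rose and 4 fell, since *Nr1h2* (0.03, adjusted p = 0.668) and *Nr1h3* (0.07, adjusted p = 0.373) no longer passed and *Nr3c1* did (-0.52, adjusted p = 0.00781), with the median of all genes moved by -0.20.

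The genes whose profile was most like that of a member across the 10 libraries were found by Pearson's r of log2 CPM among 9543 genes with a mean of at least 5 CPM. *Ppard* was followed most closely by *Ndel1* (r = 0.999), with log2 fold changes of 0.86 with LPS and 0.21 at 32 µM, and by *Smg8* (r = 0.998). *Nr3c1* went with *Nup153* and *Ctcf* (r = 0.991 and 0.990), *Nr1d2* with *Zdhhc20* and *2510009E07Rik* (r = 0.987 and 0.978), *Rxra* with *Nasp* and *Cks1b* (r = 0.986 and 0.983) and *Rxrb* with *Arhgef40* and *Ubtf* (r = 0.983 and 0.982). For *Nr4a1* the nearest was *Hook2* (r = 0.961), which had -0.32 at 32 µM, before *Pola2* (r = 0.931), and for *Nr1h3* they were *Tfpt* and *Renbp* (r = 0.964 and 0.956). *Pparg* went with *Tmc6* and *Slc12a9* (r = 0.958 and 0.952), *Nr1h2* with *Prmt5* and *Saraf* (r = 0.957 and 0.952) and *Rara* with *Phospho2* and *Mob3c* (r = 0.935 and 0.917). These coefficients describe 10 libraries that share 5 conditions.

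The rest of the receptor family also moved in both directions with LPS. Of the 26 family genes tested, members included, 7 rose and 11 fell (3 and 15 on library totals alone), beside 25.2% and 25.8% of all genes, with a median log2 fold change of -0.30 beside 0.00 for all genes. The largest rise outside the members was in *Nr1d1* (REV-ERBα), the close relative of *Nr1d2*, from 4.86 and 6.03 CPM in DMSO to 20.0 and 19.0 CPM (1.84 ± 0.11, adjusted p = 4.22e-06), while *Nr6a1*, an orphan receptor of germ cells, rose by 0.47 (adjusted p = 0.00451). Among those that fell were *Vdr* (-3.02, adjusted p = 0.0126), the atypical corepressor receptor *Nr0b2* (-2.77, adjusted p = 0.000837) and *Rarb* (-2.10, adjusted p = 8.75e-05), all under 5 CPM. *Nr4a2* (-0.53, adjusted p = 0.0063), *Nr2c2* (-0.37, adjusted p = 0.0159), *Nr2c1* (-0.24, adjusted p = 0.0223) and *Rarg* (-0.25, adjusted p = 0.0401) fell too, the last in 9 of 21 other settings. *Nr4a3* rose from 0.391 and 0.458 CPM to 0.943 and 0.618 CPM (0.88 ± 0.30, adjusted p = 0.0408, passing in 8 of 20 other settings).

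At 32 µM, 2 family genes rose and 3 fell, beside 4.06% and 5.72% of all genes. The relative of Nur77, *Nr4a2* (Nurr1), stood at 7.11 and 7.47 CPM in DMSO + LPS and at 4.50 and 4.71 CPM at 32 µM. It fell by -0.66 ± 0.12 (adjusted p = 0.0123, passing in 17 of 21 other settings), and *Nr4a3* was lower without passing (-1.15 ± 0.31, adjusted p = 0.0606). Of the 3 NR4A receptors, 2 thus fell at 32 µM. *Rarg*, the retinoic acid receptor γ gene, fell (-0.41 ± 0.09, adjusted p = 0.0217, passing in 15 of 21 other settings) and the orphan receptor gene *Nr2c1* rose (0.32 ± 0.07, adjusted p = 0.0308, in 11 of 21). The median over the family was 0.10, beside 0.01 for all genes. Except for *Nr4a1*, no family gene passed at 10 µM.

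The immediate early genes, with which the NR4A receptors are switched on, split at 32 µM. Of the 14 tested, 4 rose and 4 fell. Beside *Nr4a1* and *Nr4a2*, *Egr1* fell from 26.8 and 27.5 CPM in DMSO + LPS to 15.7 and 15.1 CPM (-0.82 ± 0.06, adjusted p = 0.000133) and *Ier2* fell by 0.67 (adjusted p = 0.000272). In the opposite direction, *Egr2* rose (0.59 ± 0.11, adjusted p = 0.0123, in 18 of 21 other settings), as did *Fos* (0.51 ± 0.05, adjusted p = 0.000538) and *Atf3* (0.46 ± 0.06, adjusted p = 0.00169). *Egr1* fell also at 10 µM (-0.33, adjusted p = 0.0374; -0.29, adjusted p = 0.292, without both libraries that held epithelial transcripts). With LPS, 9 of the 14 rose and 2 fell, among them *Ier3*, which rose most (5.62, adjusted p = 7.95e-10), and *Egr3*, which fell (-3.34, adjusted p = 0.000205).

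Genes known to respond to the receptors were followed as lists. The counts in these lists, and in the immediate early list above, stand beside 25.2% of all genes that rose and 25.8% that fell with LPS, and 4.06% and 5.72% at 32 µM, and with lists this short nothing particular to a list is read from them. On library totals alone the LPS counts shifted downward, to 4 risen and 6 fallen clock genes, 7 and 3 immediate early genes, 0 and 8 coactivator genes and 0 and 9 corepressor genes, where the trimmed means gave 5 and 2, 9 and 2, 1 and 6, and 0 and 5. Of 21 PPAR targets tested, 4 rose and 12 fell with LPS (median -0.32), and 5 rose and 1 fell at 32 µM (median 0.11). *Plin2*, which coats lipid droplets, was at 161 and 151 CPM in DMSO, 120 and 122 CPM in DMSO + LPS, 147 and 146 CPM at 3.2 µM, 234 and 229 CPM at 10 µM and 476 and 459 CPM at 32 µM. Its rise passed at 32 µM (1.95 ± 0.05, adjusted p = 5.21e-07) and 10 µM (0.94 ± 0.05, adjusted p = 0.000163; 0.92, adjusted p = 0.0161, without both libraries that held epithelial transcripts). *Cpt1a*, the gate of mitochondrial fatty acid oxidation, fell with LPS (-1.12, adjusted p = 4.67e-07) and rose at 32 µM (1.37 ± 0.05, adjusted p = 3.09e-06) and 10 µM (0.77 ± 0.05, adjusted p = 0.000312; 0.79, adjusted p = 0.0185, without both libraries that held epithelial transcripts). The fatty acid transporter gene *Cd36* rose at 32 µM (0.53 ± 0.08, adjusted p = 0.0033), and *Hilpda*, an inhibitor of lipolysis, rose by 0.38 (adjusted p = 0.0328, in 13 of 21 other settings). *Fabp4*, a PPARγ target in fat, had the largest rise of the list with LPS (2.78). It fell from 16.3 and 17.1 CPM in DMSO + LPS to 5.99 and 4.53 CPM at 32 µM (-1.66 ± 0.14, adjusted p = 0.000184). *Angptl4*, another PPAR target, gave 0.17 ± 0.23 at 32 µM (adjusted p = 0.780).

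**Figure D4:**
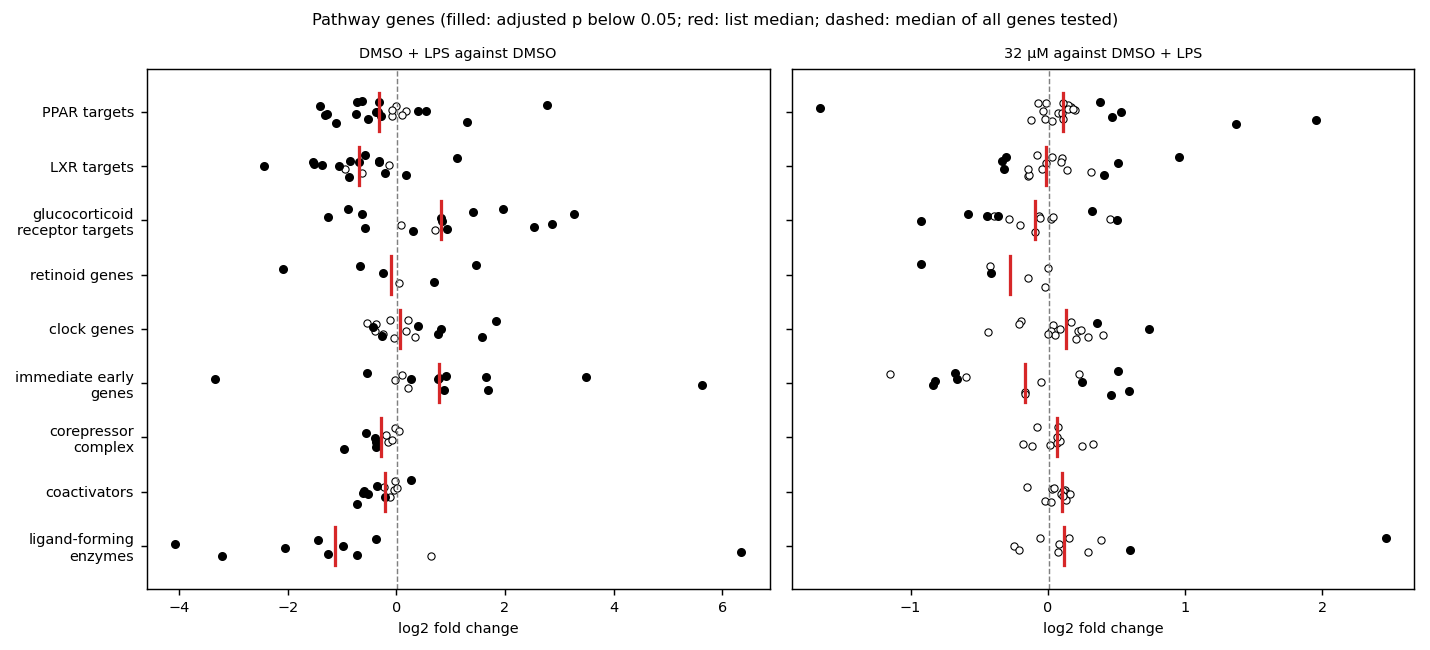
Log2 fold change (x) of each tested gene of 9 lists (y) with LPS (left) and at 32 µM (right), filled where the adjusted p was below 0.05, with the list median in red and that of all genes dashed. The LXR targets and ligand-forming enzymes lie mostly to the left with LPS, and *Plin2* (1.95) and *Ptgs1* (2.46) are the points far to the right at 32 µM.

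LXR targets fell with LPS, 12 of 17 (median -0.69), against 2 that rose, *Abca1* and the member *Nr1h3*. At 32 µM, 3 rose and 3 fell (median -0.01). Those that rose were *Arl4c* (0.96 ± 0.09, adjusted p = 0.000278), *Abcg1*, which exports cholesterol to HDL (0.51 ± 0.07, adjusted p = 0.00196), and *Smpdl3a* (0.41 ± 0.07, adjusted p = 0.00562). The efflux transporter gene *Abca1*, by contrast, rose with LPS (1.11, adjusted p = 0.000613) and gave 0.10 ± 0.16 at 32 µM (adjusted p = 0.811). The 3 that fell at 32 µM act in lipid synthesis or sterol transport and are also regulated by SREBP, whose part was not tested. They were *Scd1* (-0.33, adjusted p = 0.00573), *Stard4* (-0.32, adjusted p = 0.0105) and *Fasn* (-0.31, adjusted p = 0.0169). These calls held in 20, 18 and 17 of 21 other settings. At 10 µM *Arl4c* (0.51) and *Abcg1* (0.39) passed (adjusted p = 0.0245 and 0.0228), but not without both libraries that held epithelial transcripts (adjusted p = 0.168 and 0.210).

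Glucocorticoid receptor targets rose with LPS in 9 of 15 cases and fell in 4, with a median of 0.83. The highest were *Zfp36*, which encodes a destabilizer of cytokine mRNAs (3.28), *Nfkbia*, which encodes the NF-κB inhibitor IκBα (2.86), and *Errfi1* (2.53), with adjusted p of at most 4.6e-08. The lowest were *Tsc22d3* (-1.26, adjusted p = 3.56e-05), *Fkbp5*, a cochaperone of the receptor (-0.89, adjusted p = 4.18e-06), and *Klf9* (-0.63, adjusted p = 0.00857). At 32 µM, 2 rose and 4 fell. *Dusp1*, a MAP kinase phosphatase (0.32, adjusted p = 0.00484), and *Klf4* (0.50, adjusted p = 0.0293, in 15 of 21 other settings) rose, whereas *Cebpd* (-0.58, adjusted p = 0.00145), *Zfp36* (-0.44, adjusted p = 0.00128), *Nfkbia* (-0.36, adjusted p = 0.00978) and the mannose receptor gene *Mrc1* (-0.93, adjusted p = 0.0145) fell. *Tsc22d3*, the glucocorticoid-induced leucine zipper, gave 0.02 ± 0.11 and *Fkbp5* -0.07 ± 0.06 at 32 µM (adjusted p = 0.962 and 0.571).

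Retinoid genes were few at a testable level, 6 of 16. With LPS, 2 of them rose and 3 fell, and at 32 µM 2 fell. *Dhrs3*, a retinaldehyde reductase and a common retinoic acid target, was at 17.2 and 16.8 CPM in DMSO, 46.2 and 48.0 CPM in DMSO + LPS and 26.0 and 23.7 CPM at 32 µM (LPS 1.47, adjusted p = 6.78e-07; 32 µM -0.92 ± 0.07, adjusted p = 8.26e-05). At 10 µM it fell by 0.48 on the log2 scale (adjusted p = 0.00883; -0.54, adjusted p = 0.0887, without both libraries that held epithelial transcripts). The other that fell at 32 µM was *Rarg*, given above.

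Of 16 clock genes tested, 5 rose and 2 fell with LPS, the rises led by *Nr1d1*, *Per2* (1.58, adjusted p = 3.17e-05) and *Per1* (0.83, adjusted p = 5.37e-06). At 32 µM the repressor gene *Bhlhe41* rose from 29.1 and 31.6 CPM to 51.2 and 49.9 CPM (0.74 ± 0.05, adjusted p = 9.98e-05) and *Tef* by 0.36 (adjusted p = 0.00544). *Nr1d1*, unlike *Bhlhe41*, gave -0.20 ± 0.11 (adjusted p = 0.348).

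The coregulators through which the receptors act were followed as well. Of 10 corepressor complex genes 5 fell with LPS, led by *Nrip1* (-0.97, adjusted p = 0.000705) and *Sin3a* (-0.57, adjusted p = 1.81e-05), and of 12 coactivator genes 1 rose (*Pprc1*, 0.27, adjusted p = 0.00236) and 6 fell, led by *Ppargc1b* (-0.74, adjusted p = 6.26e-05) and *Ncoa3* (-0.62, adjusted p = 0.000198). At 32 µM none of the 22 passed in edgeR's quasi-likelihood test, DESeq2 or the likelihood ratio test, and 2 corepressor and 1 coactivator genes had an unadjusted p below 0.05.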

How the data were processed

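RNA from RAW264.7 cells was poly(A)-selected, made into directional libraries and sequenced with paired reads on 1 lane. The values the authors deposited are raw counts, not normalized, with a row for each Ensembl gene and a column for each library. Their processing notes name Trimmomatic, FastQC, STAR, DESeq2 and the mm10 build; the counting tool, its strand setting and the annotation are not given in the sources used here, so that reads of antisense or overlapping genes cannot be told apart.

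All counts were whole numbers. Of 43432 genes, 19292 were at 0 in every library and 42548 had a symbol in GENCODE M21. The 14172 genes that met filterByExpr at min.count 10 were scaled by TMM and fitted with edgeR 4.0.16 (R 4.3.3, limma 3.58.1, DESeq2 1.42.0), 1 mean per condition, 5 residual degrees of freedom. The chi-square per degree of freedom between the libraries of a condition was 3.37 to 190, so none was a copy. The steps were tested on simulated data. Counting errors do not include the spread between libraries, whereas SEs do.

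The members and the gene lists were chosen with earlier results of these data known. Named are the 10 members and the 2 most similar genes per member. Other receptors are named that passed in any of the comparisons with DMSO or DMSO + LPS. Per list, up to 3 genes with the highest and 3 with the lowest log2 fold change were picked. These had passed with LPS or at 32 µM and had a mean of at least 1 CPM. Not every gene so picked is named. Low receptors are also named, and *Angptl4*, *Tsc22d3*, *Fkbp5*, *Abca1* and *Nr1d1* at 32 µM, which had been picked for LPS. *Nfkbia* at 32 µM, named for LPS, completes its list. *Hnf4a*, *Nr3c2* and *Nr1i2* were chosen after their values were seen. *Arntl* was listed under both of its symbols and matched under the older one, and *Prmt1* was not matched among the coactivators. Promoter windows were read from RefSeq (GRCm38.p6), without those on chromosome 18. Alternatives were other scalings, filters, tests and designs, the replicate number as a block, and leaving out each library in turn.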

Additional observations from a re-analysis of the deposited data

How the results depend on the processing

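The log2 fold changes of the 10 members in 7 comparisons were recomputed under 21 other settings, 1463 values in all. Of these, 1373 kept their side of the threshold, 52 lost it, 37 gained it and 1 changed sign among those called, *Nr1h3* with LPS on library totals alone (-0.0312, or 0.17 relative to the shift of -0.20 in the median of all genes). A further 41 changed sign where neither value passed. Counts of members that passed moved as follows. Asking for 1.5-fold left 3 with LPS, 1 at 32 µM and 1 for 32 µM with LPS against DMSO, where 8, 2 and 6 had passed. The short-transcript score gave 5 at 32 µM, 2 at 10 µM, 1 at 3.2 µM and 2 between 32 and 10 µM. Only the 4 libraries compared gave 0 at 10 µM and 1 at 3.2 µM. Leaving out both libraries with epithelial transcripts, a setting added after seeing the data, gave 0 at 10 µM. Leaving out each library in turn gave 3 to 8 members with LPS (3 without DMSO + LPS replicate 2, and 5 without DMSO replicate 2, DMSO + LPS replicate 1 or either 32 µM replicate), 1 to 2 at 32 µM (1 without either DMSO + LPS or 32 µM replicate), 0 to 1 at 10 µM (0 without either DMSO + LPS replicate or 10 µM replicate 1), 6 to 7 against DMSO and 0 to 0 in the other 3. In these fits the condition left with 1 library is taken to have the spread of the others. Unless a value above bears on it, the cause was not tested.

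The labels give libraries of the same replicate number no shared culture or day. Their deviations correlated at 0.385 to 0.851 in 6 pairs of conditions and at -0.433 to -0.211 in the 4 pairs with DMSO + LPS. With the replicate block, 9 members passed with LPS (*Nr1d2* added), 2 at 32 µM, 1 at 10 µM, 0 at 3.2 µM and 8 for 32 µM with LPS against DMSO (*Nr3c1* and *Rara* added). With the DMSO + LPS numbers crossed, added after seeing the data, the replicate block gave 4 at 32 µM. Depth limited *Pparg*, at 8 to 50 counts, most.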

Other observations

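Enzymes that make or remove natural ligands of these receptors were also measured. Of 10 tested, 1 rose and 8 fell with LPS (median -1.13), and 2 rose at 32 µM (median 0.12), beside 25.2% of all genes that rose and 25.8% that fell with LPS and 4.06% that rose at 32 µM. *Ptgs2*, the inducible cyclooxygenase gene, rose with LPS from 51.3 and 57.7 CPM to 4578 and 4315 CPM (log2 fold change 6.35 ± 0.14, adjusted p = 1.89e-08). *Alox5*, which starts leukotriene synthesis, fell from 35.8 and 36.7 CPM to 2.08 and 2.21 CPM (-4.08 ± 0.16, adjusted p = 3.24e-07), and *Cyp27a1*, which forms the LXR ligand 27-hydroxycholesterol, fell by 2.05 on the log2 scale (adjusted p = 1.71e-05).

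The constitutive cyclooxygenase gene *Ptgs1* was at 11.2 and 10.0 CPM in DMSO, 1.41 and 0.873 CPM in DMSO + LPS, 2.16 and 1.98 CPM at 3.2 µM, 3.46 and 4.23 CPM at 10 µM and 6.34 and 6.41 CPM at 32 µM. Both libraries of each dose lay above both of the next lower dose and above DMSO + LPS, and all stayed below DMSO. The rise passed at 32 µM (2.46 ± 0.21, adjusted p = 0.000216) and 10 µM (1.73 ± 0.21, adjusted p = 0.00587; 1.87, adjusted p = 0.0561, without both libraries that held epithelial transcripts) and not at 3.2 µM (0.84 ± 0.22, adjusted p = 0.848). *Hsd3b7*, which acts on oxysterols in bile acid synthesis, fell with LPS (-0.99, adjusted p = 2.39e-06) and rose at 32 µM (0.60 ± 0.06, adjusted p = 0.000341).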
